A study of Mus musculus with 5 samples.

Results

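Disease-associated hepatocyte (daHep) nuclei were picked out of single-nucleus RNA-seq libraries of mouse MASH liver by 3 genes, Nrg1, Anxa2 and Sox4. A nucleus counted as a hepatocyte nucleus if it had at least 2000 unique molecular identifiers (UMIs, 1 per captured RNA molecule), under 10% mitochondrial UMIs, at least 1 UMI of Hnf4a, and no UMI of Ptprc, Ptprb, Pkhd1 or Col3a1, which mark leukocytes, endothelial cells, cholangiocytes and stellate cells. It was called a daHep nucleus if at least 2 of the 3 gate genes had a UMI, and gate-negative if none had. By this rule 327 of the 2736 hepatocyte nuclei of the MASH livers were daHep nuclei, 194 of 1422 in library MASH 1 and 133 of 1314 in library MASH 2. The nuclei were thus chosen by the measured UMIs of the gate genes, so their own levels are not reported, and all comparisons below concern other genes.

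The livers came from male wild-type C57BL6/J mice that ate either chow or a MASH diet for 5 months, starting at 10 to 12 weeks of age. The MASH diet drew 40% of its energy from fat and 20% from fructose and held 2% cholesterol. The libraries held 35612373 to 49137377 UMIs each. Nuclei were sorted by flow cytometry and sequenced as 3 chow and 2 MASH libraries with 57080 barcodes in all, 24495 of them from MASH livers. Whether a library was made from 1 mouse or from pooled mice is not given in the sources used here.

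Hepatocytes carry out most of the liver's metabolism, and they divide this work along the lobule. Periportal cells lead in urea synthesis, gluconeogenesis and amino acid breakdown, and pericentral cells lead in glutamine synthesis, bile acid synthesis and drug oxidation. In steatohepatitis fat-laden hepatocytes are injured, and some of them lose mature functions and take up genes of wound repair, cytoskeleton and stress signalling. The daHep state is a name for such cells.

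The gate was passed almost only in the MASH libraries. daHep nuclei made up 13.6% of hepatocyte nuclei in MASH 1 (95% Clopper-Pearson interval 11.9 to 15.5%) and 10.1% in MASH 2 (8.54 to 11.9%). In chow liver the gate was passed by 1 of 3355 nuclei, by 0 of 5876 (where 3 counts, the limit taken for a count of 0, would be 0.0511%, and the upper Clopper-Pearson bound was 0.0628%) and by 9 of 6269. The intervals and the limit cover counting error only. These shares describe the rule and carry no test. Deeper nuclei pass such a gate more easily, since the median was 5666.5 and 6794 UMIs in daHep nuclei of MASH 1 and MASH 2 against 4295 and 4546 in gate-negative nuclei. With every nucleus thinned to 2000 UMIs before gating, the share was 5.06% and 2.51% in the MASH libraries and 0% in each chow library. Just inside the gate, 183 and 125 nuclei had exactly 2 gate genes, and just outside it 598 and 500 had exactly 1. All 3 gate genes were found in 11 and 8 nuclei.

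**Figure D1:**
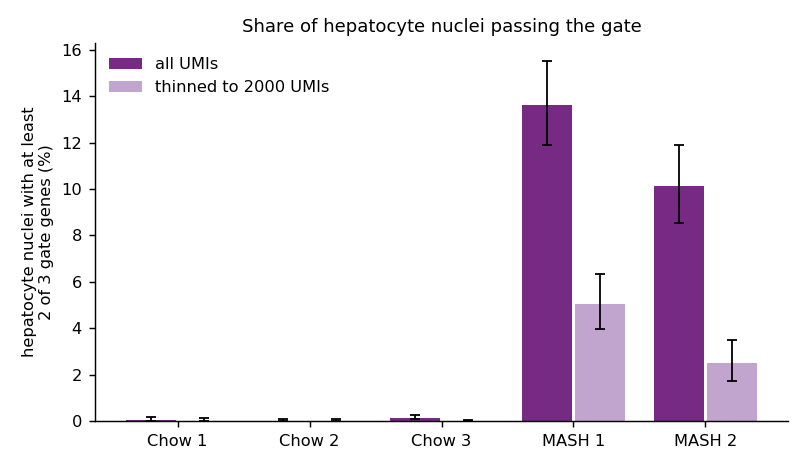
Share of hepatocyte nuclei (percent, vertical axis) that passed the gate in each of the 5 libraries, with all UMIs and with every nucleus thinned to 2000 UMIs first; bars start at 0 and error bars are 95% Clopper-Pearson intervals. The MASH libraries stood at 13.6% and 10.1% with all UMIs and at 5.06% and 2.51% after thinning, and each chow library was under 0.2% both ways.

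For the comparison of genes, each daHep nucleus was paired with a gate-negative nucleus of its own library with nearly the same number of UMIs. This gave 189 pairs in MASH 1 and 127 in MASH 2, with medians of 5581 against 5573 and 6521 against 6564 UMIs. Every nucleus was then thinned to 2000 UMIs, so that each class held 378000 UMIs in MASH 1 and 254000 in MASH 2. The mitochondrial share was 2.14% against 2.35% in MASH 1 and 0.288% against 0.298% in MASH 2, so the libraries differed more from each other than the classes did. Levels below are in CPM, the UMIs of a gene per 1000000 UMIs of the sum, with MASH 1 before MASH 2. Differences are on the log2 scale as fitted by edgeR with the library as a block, given with a standard error (SE). This SE is the absolute log2 difference divided by the square root of the F statistic of the test. It rests on a spread estimated from all genes and does not measure how far the 2 libraries lay apart for a gene. Igfbp1, for example, had an SE of 0.26 with log2 differences of 2.23 in MASH 1 and 0.36 in MASH 2. The threshold for a call was an adjusted p of 0.05.

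Markers of other liver cells stayed low in daHep nuclei. The 18 macrophage markers summed to 183 and 161 CPM in daHep nuclei, to 180 and 122 CPM in gate-negative nuclei and to 3371 and 3831 CPM in leukocyte nuclei of the same libraries. The 15 endothelial markers summed to 71.4 and 173 CPM against 95.2 and 146 CPM, and to 4729 and 6757 CPM in endothelial nuclei. The 18 stellate markers summed to 101 and 193 CPM against 130 and 154 CPM, and to 7252 and 8164 CPM in stellate nuclei. The 13 cholangiocyte markers were the exception, at 524 and 713 CPM in daHep nuclei against 415 and 441 CPM, with 2436 and 6236 CPM in cholangiocyte nuclei. Of these 13, 5 were at 0 in daHep nuclei of both libraries, among them Krt7 and Krt19, which define bile duct cells but were low in cholangiocyte nuclei too, with Krt7 at 2.19 and 35.7 CPM and Krt19 at 0 and 19.3 CPM. Other markers of the list were higher in daHep nuclei of both libraries, such as Bicc1 with 5 against 1 and 14 against 4 UMIs, Sox9 with 22 against 14 and 14 against 11, and Spp1, described below. The lymphocyte, dendritic, neutrophil, erythroid and mesothelial lists each summed to at most 71.4 CPM in daHep nuclei and 84.7 CPM in gate-negative nuclei. The part of other cells in the differences below was not tested beyond these sums and the removals named in the text. Scrublet, a doublet scorer, called no nucleus at its automatic threshold, so that threshold did not work here. Its median score was 0.0548 against 0.0577 in MASH 1 and 0.0436 against 0.0471 in MASH 2. Any pair of the 5 libraries shared 23 to 48 barcode sequences, at most 0.399% of the smaller library.

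Of 5683 genes tested, 93 were called higher (1.64%) and 116 lower (2.04%). The called rises had a median log2 difference of 0.99, and 46 of them were over 2-fold. The called falls had a median of -0.64, and 20 of them were over 2-fold. Of the rises 91 went the same way in both libraries taken alone, and of the falls 115. Over all tested genes 51.8% went the same way in both libraries, and the median log2 difference was -0.0053. The counts of calls in gene lists below stand against these shares over all genes, 1.64% higher and 2.04% lower. Some genes are in several lists, so the counts of the lists overlap.

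The p-values rest on 2 libraries, 4 sums and 1 residual degree of freedom, so the number of calls leaned on the spread that edgeR estimated from all genes. It ranged from 0 to 657 over the 20 alternative settings. Without scaling beyond the thinned totals it was 28 higher and 23 lower. It was 0 after removing the nuclei with the highest Scrublet scores or the nuclei above the 95th percentile of UMIs, with 634 and 577 genes at an unadjusted p under 0.05, against 743 in the comparison as reported. The direction moved less than the call: with either removal, 205 of the 206 called genes still tested kept their sign. For this reason most genes described below are given with their level in each library and with the number of alternatives that also called them, out of those that gave an adjusted p. An alternative adjustment of the same p-values, Storey q-values, can only lower the adjusted p, so it kept all 209 calls by construction. A called gene with a count of 1 was therefore called by that setting alone.

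**Figure D2:**
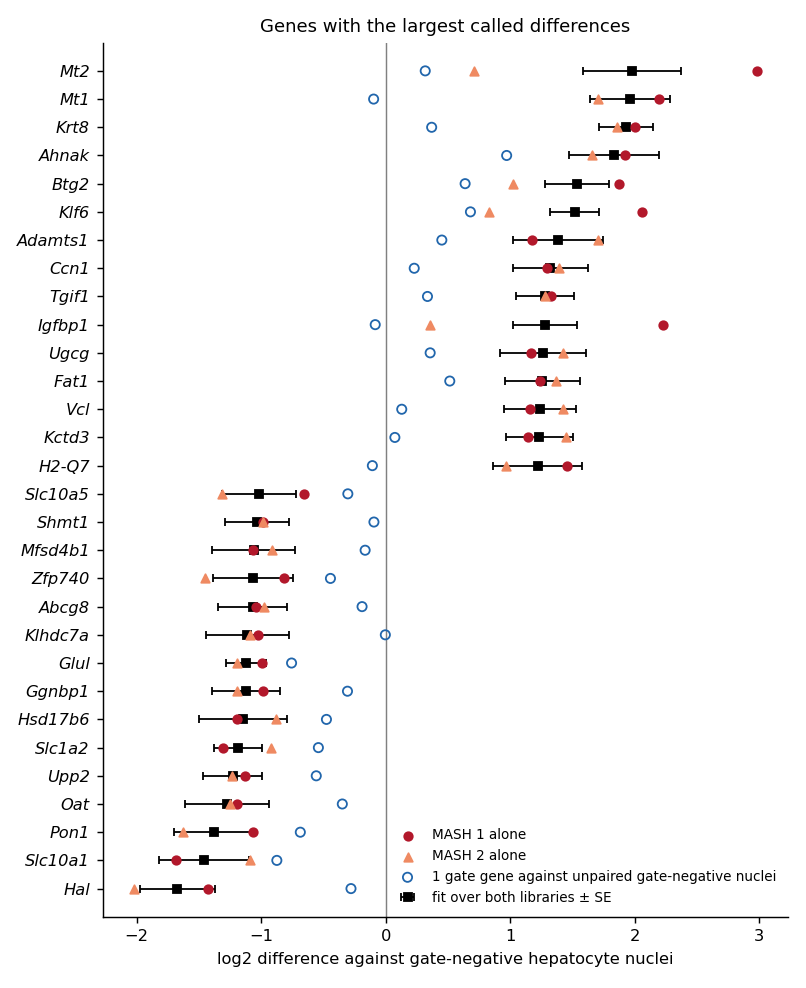
Difference between daHep and gate-negative nuclei (log2, horizontal axis) for the 15 largest called rises and the 15 largest called falls; black squares with bars are the fitted value and its standard error, filled circles and triangles are MASH 1 alone and MASH 2 alone, and open circles are nuclei with 1 gate gene against gate-negative nuclei left over after pairing, described further on. The rule kept only genes on the same side of 0 in both libraries with at least 50 UMIs in the higher class. Larger called differences outside the rule, such as Ier3, are not shown. Igfbp1 was far apart between them, at 2.23 and 0.36.

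Krt8, the keratin that pairs with Krt18 in the intermediate filaments of hepatocytes, stood at 365 and 248 CPM in daHep nuclei and at 89.9 and 66.9 CPM in gate-negative nuclei (log2 difference 1.93, SE 0.22, adjusted p = 4.4e-15). Both daHep sums lay above both gate-negative sums, and 16 of 19 alternatives also called it. In cholangiocyte nuclei Krt8 was at 216 and 147 CPM, below the daHep levels. Spp1, which encodes the secreted matrix protein osteopontin and is high in bile duct cells, was at 167 and 335 CPM against 111 and 134 CPM (0.92, SE 0.21, adjusted p = 0.0013). In cholangiocyte nuclei Spp1 reached 1692 and 4508 CPM, and in endothelial, leukocyte and stellate nuclei it was at 226 and 675, 288 and 584, and 247 and 489 CPM, all above the daHep level of the same library. Spp1 was called in 10 of 19 alternatives. Of the 5 ductal and epithelial genes tested, these 2 were called higher and none lower.

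Several genes of the cytoskeleton were among the rises. Ahnak, a giant scaffold protein under the plasma membrane, was at 114 and 78.7 CPM against 29.1 and 23.6 CPM (1.83, SE 0.36, adjusted p = 6.2e-05). Ahnak was however at 138 and 225 CPM in endothelial nuclei, above the daHep level. Tubb2a, a beta-tubulin, was at 357 and 252 CPM against 177 and 102 CPM (1.06, SE 0.19, adjusted p = 7.8e-06). In the annexin, S100 and cytoskeleton list, 3 of 16 tested genes were called higher and none lower (median 0.62), namely S100a10, Tubb2a and Tpm1, while Anxa6, Tmsb4x and Cnn3 of the list were below 0. Ahnak was called in 13 of 16, Tubb2a in 13 of 19 and Tpm1 in 4 of 18 alternatives. S100a10, the partner of annexin A2, split by library, with 46 UMIs against 13 in MASH 1 and 10 against 10 in MASH 2. Vcl, which encodes vinculin of focal adhesions, was at 138 and 130 CPM against 60.8 and 47.2 CPM (1.24, SE 0.29, adjusted p = 0.0016). The large cadherin Fat1 was at 146 and 94.5 CPM against 60.8 and 35.4 CPM (1.26, SE 0.30, adjusted p = 0.0026). Vcl was called in 4 of 16 and Fat1 in 7 of 17 alternatives. YAP is a co-activator that responds to stretch and cell shape. The list of YAP, its partners and its targets had 2 of 6 tested genes called higher and none lower. These were the target Ccn1 and Yap1 itself. Ccn1, a secreted matrix protein, was at 119 and 138 CPM against 47.6 and 51.2 CPM (1.32, SE 0.30, adjusted p = 0.0013). Ccn1 was called in 9 of 18 alternatives and Yap1 in 1 of 18.

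The early-response genes, which cells switch on within minutes of a stimulus and which include the AP-1 factors, had 5 of 11 tested genes called higher and none lower. Their median was 0.92 and 10 of the 11 were above 0. Klf6, a zinc finger factor, was at 413 and 260 CPM against 97.9 and 146 CPM (1.52, SE 0.20, adjusted p = 1.9e-11). Jun, the core AP-1 subunit, was at 267 and 244 CPM against 122 and 130 CPM (1.0, SE 0.21, adjusted p = 0.00016). Btg2, an antiproliferative factor, was at 217 and 138 CPM against 58.2 and 66.9 CPM (1.53, SE 0.26, adjusted p = 6.1e-07). For these 3 genes both daHep sums lay above both gate-negative sums, and Klf6 was called in 15 of 19, Jun in 10 of 19 and Btg2 in 13 of 18 alternatives. Ier3 had the largest fitted rise of all called genes (2.36, SE 0.55, adjusted p = 0.0018) but rested on 27 against 5 UMIs in MASH 1 and 11 against 2 in MASH 2. The fifth was Jund. In single nuclei the difference was a shift of a few molecules. Of 2000 UMIs, the median daHep nucleus gave 3 to this list (25th to 75th percentile 1 to 5) in MASH 1 and 2 (1 to 4) in MASH 2, and the median gate-negative nucleus 2 (1 to 3) in each.

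The AP-1 binding sequence was counted in front of the called genes. The letters TGANTCA, which read the same on both strands, were sought in the 250 bases before the start. The letters were found for 4 of the 78 called rises with a RefSeq promoter (5.13%). They were found in 6 of the 86 called falls with one (6.98%), in 5.48% of all tested genes with one and in 7.82% of all RefSeq promoters. These counts describe a window of 250 bases and no binding was measured.

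The metallothioneins Mt1 and Mt2, small proteins that bind zinc and copper and are switched on by metal, glucocorticoid and oxidant stress, had the largest fold changes of the genes named by size. Mt1 was at 138 and 146 CPM against 29.1 and 43.3 CPM (1.96, SE 0.32, adjusted p = 2.4e-07). Mt2 was at 114 and 59.1 CPM against 13.2 and 35.4 CPM (1.98, SE 0.39, adjusted p = 7.6e-05). Mt1 was called in 14 of 18 alternatives and Mt2 in 8 of 16. In endothelial nuclei Mt1 was at 76.3 and 91.7 CPM and Mt2 at 45.2 and 58.8 CPM, above the gate-negative levels, and for Mt2 in MASH 2 about at the daHep level. The part of free RNA in these levels was not tested. Both are short, closely related genes, so counts could be split between them. The MASH levels were far below those of chow hepatocyte nuclei, where Mt1 was at 873, 865 and 8787 CPM and Mt2 at 363, 491 and 2550 CPM. Hence both metallothioneins were higher in daHep than in gate-negative nuclei of MASH liver, yet lower than in any chow library.

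The 250 bases before the RefSeq start of each gene are shown because the genes lie side by side on chromosome 8 and moved together. They are from RefSeq on GRCm38.p6, plus strand, at chr8:94178839-94179088 for Mt1 and chr8:94172368-94172617 for Mt2. Capitals mark matches to the metal response element core, TGCNCNC or its reverse complement GNGNGCA.
Mt1: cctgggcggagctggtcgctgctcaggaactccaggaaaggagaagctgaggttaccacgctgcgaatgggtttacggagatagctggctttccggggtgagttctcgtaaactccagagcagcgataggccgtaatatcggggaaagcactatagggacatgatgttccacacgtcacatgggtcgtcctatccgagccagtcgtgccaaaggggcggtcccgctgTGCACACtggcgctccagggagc
Mt2: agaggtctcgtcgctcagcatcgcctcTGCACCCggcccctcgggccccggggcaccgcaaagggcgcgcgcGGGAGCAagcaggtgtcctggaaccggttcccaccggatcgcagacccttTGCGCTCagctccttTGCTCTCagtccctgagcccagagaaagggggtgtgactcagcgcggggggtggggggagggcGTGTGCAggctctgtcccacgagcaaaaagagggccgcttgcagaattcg
The Mt2 window held 5 matches and the Mt1 window 1. In GENCODE M21 the genes start at 94179082 (Mt1) and 94172664 (Mt2). The Mt1 window thus runs past that start and the Mt2 window stops short of it. The 2 counts depend on the start used and do not give the number of metal response elements of either promoter. This loose core was found in 47.2% of all RefSeq promoters and in 57.4% of the tested genes with a promoter. It was found in 51 of 78 called rises (65.4%) and in 45 of 86 called falls (52.3%). For 4 or more matches the shares were 1.49% of all promoters and 2.485% of the tested genes. Of the called rises 6 had 4 or more (7.69%), and of the called falls 2 (2.33%). These shares carry no test. Only this core is marked in the windows, and the AP-1 letters counted above are not.

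Among genes of the NRF2 and glutathione response, which makes antioxidant and conjugating enzymes, 5 of 11 tested were called higher and none lower (median 0.54), Mt1 and Mt2 included. Ugdh, which makes the glucuronic acid donor for conjugation, was at 370 and 382 CPM against 243 and 154 CPM (0.83, SE 0.17, adjusted p = 0.00016). Txnrd1, thioredoxin reductase, was at 230 and 157 CPM against 135 and 98.4 CPM (0.70, SE 0.22, adjusted p = 0.044). The fifth was Gclc, the catalytic subunit for glutathione synthesis. Ugdh was called in 9 of 19 alternatives and Txnrd1 in 3 of 18.

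Of genes for secreted proteins, Gdf15, a stress hormone that acts on the brainstem, was at 407 and 299 CPM against 235 and 173 CPM (0.75, SE 0.17, adjusted p = 0.0014), and 12 of 19 alternatives also called it. Cxcl1, a chemokine that draws in neutrophils, was at 220 and 138 CPM against 82.0 and 82.7 CPM (1.13, SE 0.24, adjusted p = 0.00029). Igfbp1, which binds insulin-like growth factors, was at 190 and 142 CPM against 39.7 and 110 CPM (1.28, SE 0.26, adjusted p = 8.6e-05), a difference that was mostly in MASH 1. Adamts1, a secreted protease, was at 79.4 and 94.5 CPM against 34.4 and 27.6 CPM (1.38, SE 0.36, adjusted p = 0.0080). Cxcl1 was called in 10 of 18, Igfbp1 in 8 of 18 and Adamts1 in 4 of 17 alternatives. The integrated stress response slows translation under stress, and its list also held Xbp1 of the unfolded protein response. Of 12 tested genes of the list, 3 were called higher (1.64% over all genes) and none lower, namely Gdf15, Ddit3 and Xbp1. The median of the list was 0.17 and 10 of the 12 were above 0. Atf4 and Atf5 were at 0.087 and 0.044 and were not called. Ddit3 and Xbp1 were each called in 1 alternative. The symbol Ddit3 here means the gene ENSMUSG00000025408.

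The remaining genes among the 15 largest rises were Tgif1, Ugcg, Kctd3 and H2-Q7, with log2 differences of 1.28, 1.26, 1.23 and 1.22. Tgif1, a repressor of TGF-beta signalling, was called in 11 of 18 alternatives, and H2-Q7, a class I histocompatibility gene with near-identical neighbours, in 1 of 16. Ly6d, a lipid-anchored surface protein, was at 206 and 154 CPM against 103 and 59.1 CPM (1.07, SE 0.24, adjusted p = 0.00073). In chow hepatocyte nuclei Ly6d was at 1.21, 0.875 and 13.9 CPM. Id3, a TGF-beta family target, was called but was higher in MASH 1 alone, at 172 against 58.2 CPM, with 59.1 against 63.0 CPM in MASH 2. Plin2, the coat protein of lipid droplets (0.49), and Apoa4, an apolipoprotein of triglyceride-rich particles (0.59), were each the only call in their lists and were larger in MASH 1. Ly6d was called in 11 of 18, Id3 in 4 of 17, Plin2 in 9 of 20 and Apoa4 in 4 of 19 alternatives.

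**Figure D3:**
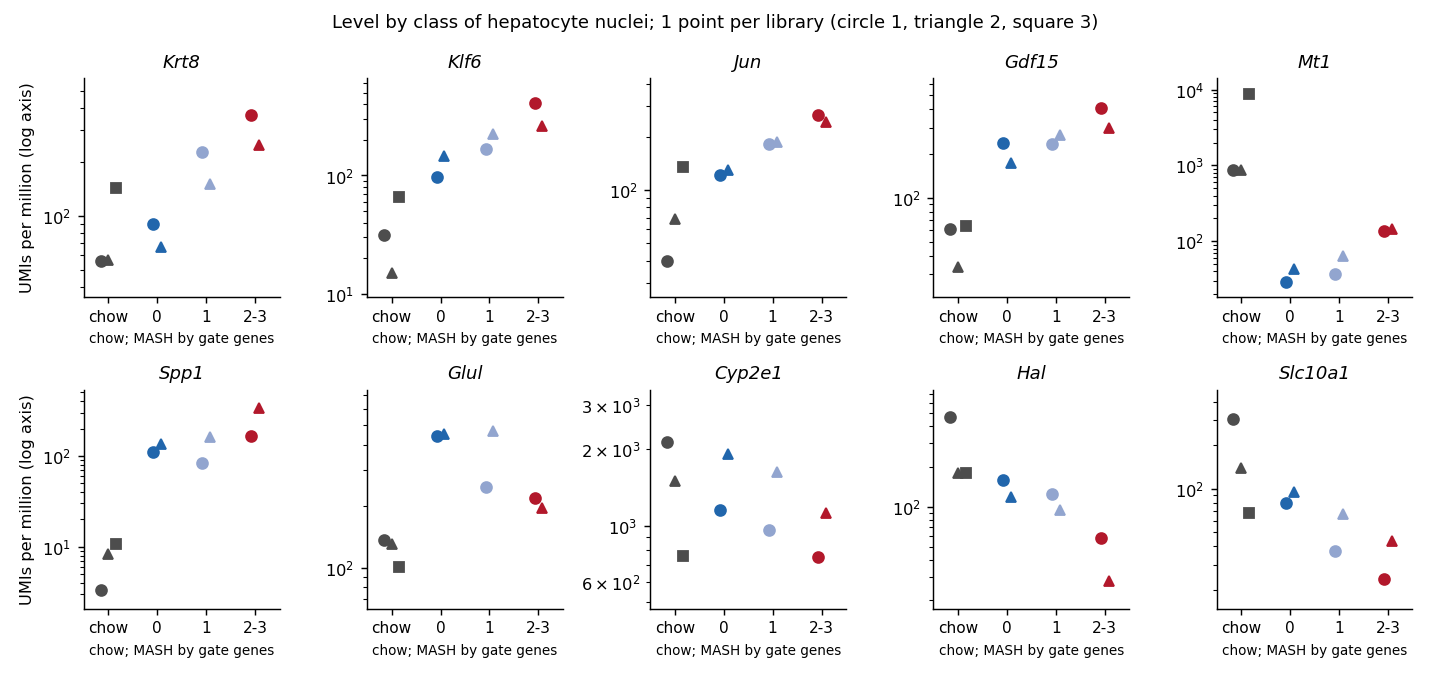
Level in CPM (vertical axis) of single genes in chow hepatocyte nuclei, gate-negative nuclei, nuclei with 1 gate gene and daHep nuclei; each point is 1 library (circle 1, triangle 2, square 3) and the axis is logarithmic. Krt8 was at 365 and 248 in daHep nuclei against 89.9 and 66.9 in gate-negative nuclei, and Glul at 220 and 197 against 439 and 453.

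The falls included genes of hepatocyte metabolism, and also others such as Zfp740 and Errfi1. Glul, glutamine synthetase of the last rows of pericentral cells, was at 220 and 197 CPM in daHep nuclei against 439 and 453 CPM in gate-negative nuclei (-1.12, SE 0.16, adjusted p = 4.2e-09). It was called lower in 16 of 20 alternatives. Slc1a2, the glutamate transporter of the same cells, was at 130 and 161 CPM against 323 and 307 CPM (-1.18, SE 0.19, adjusted p = 2.4e-07). Cyp2e1, the ethanol- and acetaminophen-oxidising cytochrome, was at 754 and 1122 CPM against 1153 and 1913 CPM (-0.73, SE 0.09, adjusted p = 3.9e-12). Within each library Cyp2e1 was lower in daHep nuclei, although MASH 2 daHep nuclei stood close to MASH 1 gate-negative nuclei. Of 16 tested pericentral genes, 8 were called lower and none higher (median -0.71), and 1 of the 16 was above 0. Slc1a2 was called in 15 of 19 and Cyp2e1 in 15 of 20 alternatives.

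Periportal genes were also among the falls. Of 18 tested, 8 were called lower and none higher (median -0.46). Hal, the first enzyme of histidine breakdown and a classic periportal gene, was at 58.2 and 27.6 CPM against 159 and 118 CPM (-1.67, SE 0.30, adjusted p = 4.1e-06). Sds, serine dehydratase, was at 87.3 and 134 CPM against 172 and 189 CPM (-0.79, SE 0.23, adjusted p = 0.021). Hal was called in 13 of 17 alternatives and Sds in 3 of 18. Cyp2f2, another periportal gene, was called lower but was so in MASH 1 alone, with 127 against 286 CPM there and 102 against 94.5 CPM in MASH 2.

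Amino acid metabolism was the list with the largest number of falls, with 14 of 37 tested genes called lower and none higher (median -0.54). Over all tested genes 2.04% were called lower. By share the pericentral list, with 8 of 16, and the periportal list, with 8 of 18, had more. Hal, Sds and Uroc1 are also in the periportal list and Oat is also in the pericentral list, so these falls are counted in both places. Oat, ornithine aminotransferase, was at 50.3 and 23.6 CPM against 116 and 59.1 CPM (-1.27, SE 0.34, adjusted p = 0.0081). Shmt1, which feeds serine carbon into the folate cycle, was at 76.7 and 74.8 CPM against 153 and 150 CPM (-1.04, SE 0.26, adjusted p = 0.0038), and 4 of 18 alternatives called it. Summed over the 39 listed genes, the level was 6720 and 8799 CPM against 9122 and 12350 CPM, and in single nuclei the median was 13 of 2000 UMIs against 18 in MASH 1 and 16 against 25 in MASH 2. In urea and nitrogen metabolism 3 of 15 tested genes were called lower and none higher (median -0.42), Glul among them. Cps1, the entry enzyme of the urea cycle, was at 238 and 339 CPM against 384 and 480 CPM (-0.64, SE 0.15, adjusted p = 0.0029), and Arg1, arginase, had a log2 difference of -0.49 (adjusted p = 0.011). Oat was called in 6 of 16, Cps1 in 7 of 19 and Arg1 in 6 of 19 alternatives.

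Bile acid genes had 5 of 21 tested called lower and none higher (median -0.21). Slc10a1, which encodes NTCP, the uptake transporter for bile salts, was at 23.8 and 43.3 CPM against 79.4 and 94.5 CPM (-1.46, SE 0.36, adjusted p = 0.0042), with 3 of 17 alternatives calling it. Cyp7a1, the rate-limiting enzyme of bile acid synthesis, was at 97.9 and 146 CPM against 148 and 240 CPM (-0.70, SE 0.22, adjusted p = 0.047). In xenobiotic metabolism 12 of 49 tested genes were called lower and none higher (median -0.38). Ces3a, a carboxylesterase, was at 505 and 374 CPM against 862 and 642 CPM (-0.81, SE 0.12, adjusted p = 2.3e-08). Its family and the Cyp2a, Cyp3a, Akr1c and Hsd3b families have near-identical copies, so counts between their members are uncertain. Nr1i3, which encodes the drug sensor CAR, was at 730 and 921 CPM against 1146 and 1358 CPM (-0.65, SE 0.10, adjusted p = 2.3e-08) and was the only one of 17 hepatocyte transcription factors called. Cyp7a1 was called in 3 of 18 alternatives, Ces3a in 14 of 20 and Nr1i3 in 14 of 20.

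In glucose and fructose metabolism 3 of 22 tested genes were called lower and none higher (median -0.25). Pck1, the gluconeogenic PEP carboxykinase, was at 738 and 1102 CPM against 1201 and 1760 CPM (-0.73, SE 0.09, adjusted p = 7.6e-12). G6pc, glucose-6-phosphatase, was at 238 and 260 CPM against 315 and 429 CPM (-0.59, SE 0.16, adjusted p = 0.016), and Ppp1r3b, which brings a phosphatase to glycogen, had a log2 difference of -0.68 (adjusted p = 0.0048). The remaining genes among the 15 largest falls were Pon1, Upp2, Hsd17b6, Ggnbp1, Klhdc7a, Abcg8, Zfp740, Mfsd4b1 and Slc10a5, with log2 differences between -1.38 and -1.02. Of these, Pon1 and Upp2 were called in 7 and 13 of 18 alternatives and the others in at most 4. Errfi1, an inhibitor of the EGF receptor, was lower by a small amount, at 2278 and 2677 CPM against 2844 and 3614 CPM (-0.41, SE 0.07, adjusted p = 3.6e-07). Pck1 was called in 13 of 20, G6pc in 7 of 19, Ppp1r3b in 9 of 19 and Errfi1 in 13 of 20 alternatives.

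Hepatocyte RNA was also present outside hepatocyte nuclei. In endothelial nuclei of the same libraries the plasma protein genes summed to 19558 and 11306 CPM, against 16132 and 15602 CPM in daHep nuclei. The endothelial nuclei were shallower, with medians of 1219 and 1092 UMIs against 5581 and 6521 in daHep nuclei. Their median mitochondrial share was 10.2% and 1.52%, against 2.14% and 0.288%. Levels in the 2 kinds of nuclei are therefore not directly comparable. The amino acid list summed to 4647 and 4771 CPM in endothelial nuclei and the pericentral list to 2711 and 2310 CPM, the latter against 3019 and 3583 CPM in daHep nuclei and 4664 and 5776 CPM in gate-negative nuclei. A share of each hepatocyte gene's level can thus be free RNA, and its part in the falls was not tested. Shares of nuclei with a UMI of these genes are therefore not given.

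**Figure D4:**
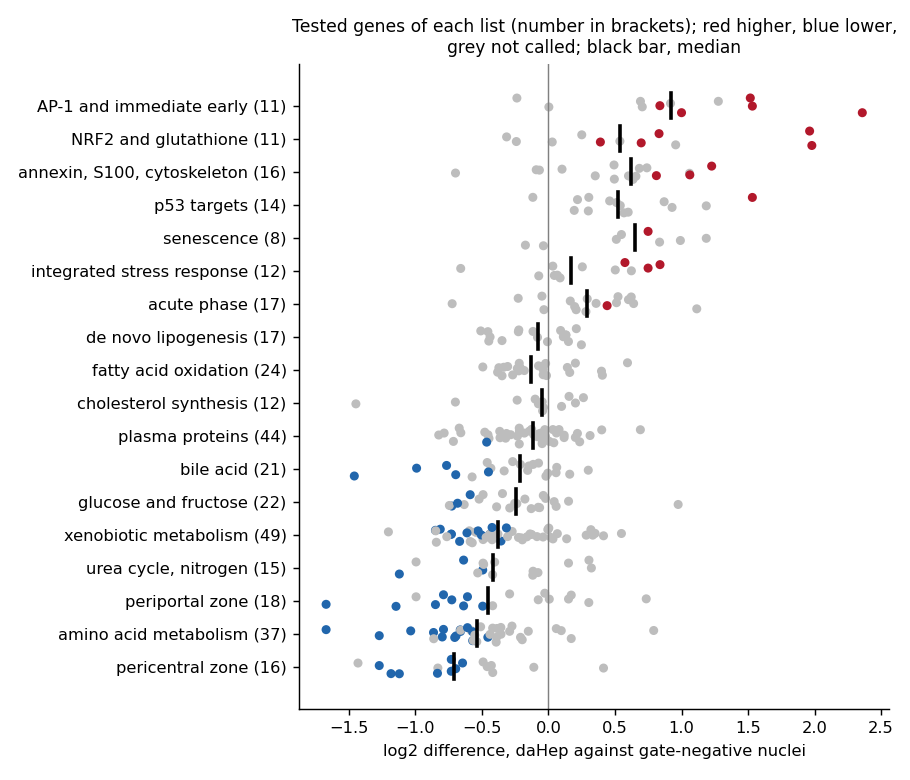
Log2 difference between daHep and gate-negative nuclei (horizontal axis) of each tested gene in 18 gene lists, with the number tested in brackets; red points were called higher, blue points lower and grey points not called, and black bars are medians. The early-response, antioxidant and cytoskeleton lists had medians of 0.92, 0.54 and 0.62 and no gene called lower, and the amino acid (-0.54) and pericentral (-0.71) lists lay lowest among those with several calls.

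Of the 41 genes of the study's senescence list 8 could be tested, 1 was called higher (Gdf15) and none lower, and the median was 0.65. The study started from a published set, added Cdkn1a and Gdf15, and kept genes by their expression and variation in hepatocytes. The count of this list is therefore not independent evidence of a direction. Cdkn1a, which encodes the cell cycle inhibitor p21, was at 84.7 and 43.3 CPM against 23.8 and 35.4 CPM and did not pass the test (1.19, SE 0.41, adjusted p = 0.089). It rested on 32 against 9 UMIs in MASH 1 and 11 against 9 in MASH 2. Of 14 tested p53 targets, Btg2 alone was called, and 13 of 14 were above 0 with a median of 0.53. Themis, a T cell signalling gene that the study followed in hepatocytes, was at 148 and 122 CPM against 124 and 138 CPM (0.04, SE 0.23, adjusted p = 0.97). The classes overlapped, and both were above the chow levels of 2.57, 0.962 and 2.75 CPM.

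Several large programmes had no gene called in either direction, against 1.64% and 2.04% of all genes. These were de novo lipogenesis (17 genes tested, median -0.08), fatty acid oxidation (24, -0.13), cholesterol synthesis (12, -0.05), antigen presentation (11, 0.08) and proliferation (7, -0.13). Secreted plasma proteins had 1 of 44 called, Rbp4, lower (median -0.12), and the acute phase list 1 of 17, Cp, higher (median 0.29). Cp, the copper carrier ceruloplasmin, was at 1447 and 1630 CPM against 939 and 1303 CPM (0.44, SE 0.09, adjusted p = 0.00011), and 11 of 20 alternatives called it. The major urinary proteins (3 genes) and the list of Themis with its partners in T cell signalling (3 genes, Themis itself, Ptpn11 and Sos1) had no call either. A single gene was called in each of the lists for midlobular cells (of 6), TGF-beta (of 11), lipid droplets (of 18), apolipoproteins (of 19), chemokines (of 5), fetal and tumour markers (of 1) and EGF receptor signalling (of 9). With 2 libraries, absence of a call does not show that these genes were alike in both classes.

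Position along the lobule was approached by ranking the hepatocyte nuclei of a library on pericentral minus periportal UMIs, as a share of all UMIs. The ranks were cut into equal tertiles. Both lists were lower in daHep nuclei, so fewer UMIs of both can also bring a nucleus to the middle. The periportal list summed to 4185 and 4996 CPM in daHep nuclei against 5725 and 6094.5 CPM in gate-negative nuclei. The midlobular list summed to 947 and 697 CPM against 942 and 744 CPM. Whether daHep nuclei lie midlobular was thus not tested. In MASH 1 the middle tertile held 52.4% of paired daHep nuclei (95% interval 45.0 to 59.7%) and 22.2% of their gate-negative partners (16.5 to 28.8%). The periportal tertile held 19.6% against 36.0% there, and the pericentral tertile 28.0% against 41.8%. In MASH 2 the middle tertile held 40.9% (32.3 to 50.02%) against 33.9% (25.7 to 42.8%), the periportal tertile 33.9% against 35.4% and the pericentral tertile 25.2% against 30.7%. The intervals overlapped in MASH 2 and not in MASH 1 for the middle tertile. They cover counting error of nuclei within a library only and are no test between the classes. With pairs matched within tertiles, 71 genes were called higher and 87 lower. Glul then had a log2 difference of -0.64 and Krt8 of 1.26, smaller than above, and Klf6 of 1.77. Glul is itself in the pericentral list that set the tertiles, so the matching alone can shrink its difference.

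**Figure D5:**
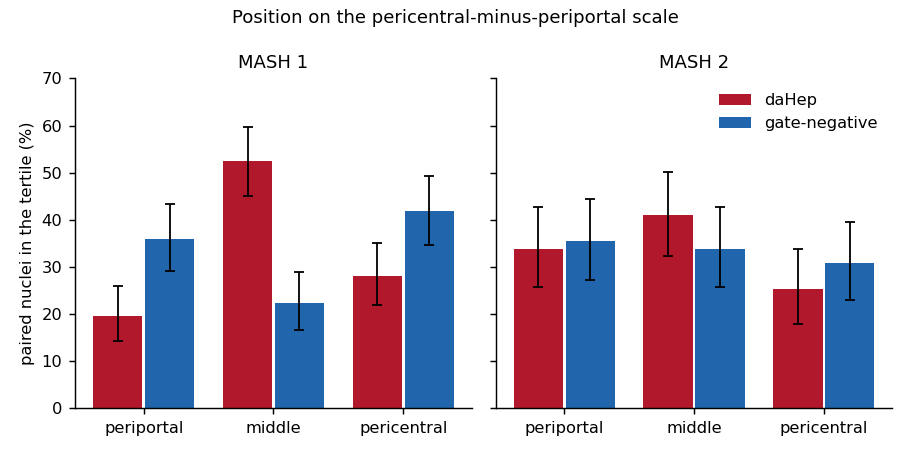
Share of paired nuclei (percent, vertical axis) in tertiles of pericentral minus periportal UMIs in each MASH library, for daHep and gate-negative nuclei. The tertiles are named periportal, middle and pericentral. Error bars are 95% Clopper-Pearson intervals, which cover counting error only. In MASH 1 the middle tertile held 52.4% of daHep and 22.2% of gate-negative nuclei, and in MASH 2 it held 40.9% and 33.9%.

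Levels within daHep nuclei varied with the strength of the gate. In MASH 1, 62 paired daHep nuclei had exactly 2 gate UMIs and 127 had 3 or more, and in MASH 2 these were 35 and 92. Glul went from 468 to 98.4 CPM in MASH 1 and from 271 to 168 CPM in MASH 2. Cyp2e1 went from 1218 to 528 CPM and from 1471 to 989 CPM. Krt8 went the other way, from 210 to 441 CPM and from 143 to 288 CPM, as did Jun, from 153 to 323 CPM and from 100 to 299 CPM. These 4 genes were picked among the called ones, and Themis, which was not called, went from 194 to 126 CPM in MASH 1 and from 85.7 to 136 CPM in MASH 2. The groups were cut by the gate counts themselves, and more UMIs per nucleus give more gate UMIs, so this is given as a description without a test.

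Nuclei with exactly 1 gate gene were not used in the comparison as reported, nor were the gate-negative nuclei left over after pairing. Some of the alternatives did draw on them. These nuclei were compared in the same way, with 401 pairs in MASH 1 and 419 in MASH 2, a comparison chosen after the results above were known. They come from the same 2 libraries and were sorted by the same gate genes, so this is not an independent check. edgeR called 0 of 8774 genes higher (0%) and 1 lower (0.0114%), the haemoglobin gene Hbb-bs, with 620 at an unadjusted p under 0.05. Of the 93 genes called higher in daHep nuclei, 92 could be tested here and 85 were above 0, with a median of 0.29. Of the 116 called lower, 110 were below 0, with a median of -0.22. Over all 5682 shared genes 48.3% were above 0. An unadjusted p under 0.05 in the same direction was found for 36 of the rises and 66 of the falls, against 8.36% of all shared genes in either direction. Cyp2e1 had a log2 difference of -0.42, Gdf15 of 0.74 and Klf6 of 0.68, whereas Mt1 had -0.10 and Igfbp1 -0.084.

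Set beside chow hepatocyte nuclei, the rises split in 3 ways. For 59 of the 93, both MASH daHep levels lay above all 3 chow levels, for 28 they overlapped and for 6 they lay below. Among all tested genes 33.2% lay above and 11.6% below. The called genes were chosen by these same daHep sums, so selection alone can move their counts from those of all genes. Klf6 was of the first kind, with 31.6, 14.96 and 65.7 CPM in chow nuclei, and so were Jun with 39.6, 69.0 and 135 CPM and Gdf15 with 61.1, 33.3 and 64.2 CPM. Cxcl1, at 1102, 158 and 2599 CPM in chow nuclei, was of the second kind. Of the 116 falls, 30 lay below all chow levels, 73 overlapped and 13 lay above. Pck1, at 2301, 2503 and 2472 CPM in chow nuclei, lay below, while Glul, at 136, 131 and 101 CPM, lay above in both MASH classes. Gate-negative MASH nuclei lay above all chow levels for 25 of the 93 rises and below for 23, and for the 116 falls they lay above for 33 and below for 17. Over all tested genes gate-negative nuclei lay above all chow levels for 29.9% and below for 12.8%. Diet and library cannot be told apart here from the depth of each library, and these counts carry no test.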

How the data were processed

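Single-nucleus gene expression of sorted liver nuclei was measured with droplet 3' sequencing. The authors aligned reads with Cell Ranger 8.0.1 to GRCm38 and left out intronic reads, so the deposited values are raw UMI counts per gene and barcode. Leaving out introns lowers the UMIs per nucleus. No cell annotation was used here; hepatocyte nuclei and classes were set by the rule in the results. No column of the tables was left unused because of an unknown sample.

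Nuclei were thinned to 2000 UMIs without replacement (Python 3.11.15), paired within a library within 0.05 on the log10 UMI scale, and summed per library and class. The 4 sums were fitted with edgeR 4.0.16 (TMM, filterByExpr, quasi-likelihood test, library as block, two-sided, Benjamini-Hochberg adjustment over all 5683 genes, threshold 0.05). The library is the pairing unit, since both classes of a library come from the same tissue. Differences in 1 library used a pseudocount of 0.5 UMIs. Reference nuclei of other cell types had at least 500 UMIs, at least 2 UMIs of their marker and no UMI of Hnf4a or of the other 3 markers. For their levels they were not thinned, and no limit on mitochondrial UMIs was set. Gene positions came from GENCODE M21 and promoters from RefSeq on GRCm38.p6. The fit was checked on simulated counts.

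Named genes were the 15 largest called rises and falls that moved the same way in both libraries with at least 50 UMIs in the higher class, without mitochondrial, clone-named, gate and exclusion genes. Up to 4 called genes per list and direction were added, and Themis, Gdf15, Cdkn1a, Klf6 and Jun. The members, gene lists and tests were chosen with earlier results of these data known. Alternatives were other scaling, filters, tests, thinning, matching and gates.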

Additional observations from a re-analysis of the deposited data

How the results depend on the processing

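The count of 209 called genes changed with most settings. It was 41 with DESeq2 size factors, 51 without scaling, 46 without a filter on low counts and 67 with at least 20 UMIs in at least 2 sums. DESeq2 1.42.0 called 17 and gave no adjusted p for 86 of the 209. It was 657 without thinning, 120 with another seed, 320 without matching on UMIs and 58 against all hepatocyte nuclei that were not daHep. Requiring no UMI of the marker lists of other cell types gave 30. Requiring all 3 gate genes, at least 2 Hnf4a UMIs, Scrublet removal or the UMI maximum gave 0, with 35, 320, 634 and 577 genes at an unadjusted p under 0.05 in edgeR, and DESeq2 was not run on these. Without the replicate block, which pairs the classes of a library, 11 were called. Seed, Scrublet removal and UMI maximum changed the prior degrees of freedom that edgeR estimated from all genes from infinite to 28.6, 4.37 and 4.71. Of the 209 genes, 183 kept their direction in each alternative that tested them. The other settings stayed within 1.5 times the count.

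Thinning before gating moved the share of daHep nuclei to 5.06% in MASH 1, 2.51% in MASH 2 and 0% in the chow libraries, from 0.0298% in chow 1 and 0.144% in chow 3.

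Direction changed for few named genes. Themis was at -0.10 unthinned, -0.30 with gate genes removed first, -0.076 matched on mitochondrial share, -0.28 after Scrublet removal and -0.64 with the UMI maximum. Cyp2f2 was at 0.0086 matched on mitochondrial share and ranged from -1.16 to 0.11 over single libraries, 0.11 being MASH 2. Id3 was at -0.28 with at least 2 Hnf4a UMIs and at 1.54 and -0.090 in MASH 1 and MASH 2 alone. Klhdc7a was at 0.074 under 2% mitochondrial UMIs, Ddit3 at -0.13 without marker UMIs, Pck1 at 0.51 with all 3 gate genes and Cdkn1a at -0.021 against all other hepatocyte nuclei. The cause was not tested. A single library gives a value and no test. The same gate contrast in chow liver was not run, since 1, 0 and 9 nuclei passed.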

Other observations

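Some genes outside the naming rule stood out and were chosen after their values were seen. Chka, choline kinase alpha, the first enzyme of phosphatidylcholine synthesis from choline, was at 2018 and 2158 CPM in daHep nuclei against 992 and 957 CPM in gate-negative nuclei (log2 difference 1.05, SE 0.09). Sorbs2, an adaptor of the actin cytoskeleton, had a log2 difference of 0.69. Tnfrsf12a, the receptor for the cytokine TWEAK, had a log2 difference of 2.32 on few UMIs. Krt18, the partner of Krt8, had a log2 difference of 0.44 and did not pass the test.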
